A study of Mus musculus with 9 samples.

Results

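Mature B cells of the mouse gut were examined in 9 single-cell RNA libraries of the lamina propria, the connective tissue under the intestinal epithelium. A barcode was counted as a B cell when at most 15% of its unique molecular identifiers (UMIs, 1 per captured RNA molecule) were mitochondrial and at least 200 genes were detected. It also had to carry at least 3 of the 7 B cell genes Cd79a, Ms4a1, Ebf1, Pax5, Bank1, Ighd and Fcer2a, fewer than 20 Jchain UMIs, fewer than 5 Lyz2 UMIs and 0 Cd3e UMIs. The members were thus chosen by the UMI counts of these 10 genes, and there were 4510 of the 31759 cells that passed the cell filter, or 14.2%. The levels of these genes are given as a description and were not tested.

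Mature B cells carry an antibody on their surface as the B cell receptor, present antigen on MHC class II molecules, and await activation by antigen and T cells. In the gut many of them collect in lymphoid follicles, where germinal centres form in response to the microbiota, and cells that switch to IgA become plasma cells that secrete it into the lumen. B-1 cells, a self-renewing subset of the body cavities, contribute natural antibody and can carry CD11b, the integrin subunit encoded by Itgam.

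All libraries came from male C57BL/6 mice of 7 to 8 weeks, and the cells were sorted for CD11b. The small intestine (SI) of untreated wild-type mice gave 2 libraries and the colon of germ-free (GF) wild-type mice gave 2. The colon of wild-type mice given pan-antibiotics gave 1, with ampicillin, neomycin and metronidazole at 1 g/L each and vancomycin at 0.5 g/L, for 1 week and in some cases longer. The colon of Nlrc4 deficient mice given dextran sulfate sodium (DSS) gave 1, the colon of wild-type mice given DSS gave 1, and the colon of untreated wild-type mice kept specific pathogen free (SPF) gave 2. DSS, an agent that injures the colonic epithelium, was given at 2.5% in the drinking water for 7 days and regular water followed. According to the study's methods, cells of several mice were pooled into a library, and the sources used here do not say that replicate libraries came from separate mice, so p-values measure only the spread between these libraries.

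The libraries held 13243317 to 64453601 UMIs, and 547 to 56341 UMIs stood behind a single B cell (median 3341). The gene Nlrc4 does not check the label of the knockout, since it had 19.9 UMIs in 1000000 of the summed UMIs (CPM) over all cells of the library labelled Nlrc4 deficient, against 10.8 CPM in the DSS library and 2.42 to 16.5 CPM in the other 7. A 3' tag need not lie in the deleted part. Of 31591 kept barcode sequences 145 occurred in more than 1 library, with at most 18 shared by a pair of libraries, and 34 B cells carried such a barcode. Scrublet, a doublet caller, marked 133 cells, of which 12 were B cells, and it marked under 0.5% of the cells in every library but the one labelled Nlrc4 deficient, so doublets were not effectively removed. Of the B cells 265 (5.88%) fell into 4 clusters led by genes of other lineages, namely genes of eosinophils, neutrophils, dendritic cells and fibroblasts. Results were therefore recomputed without these clusters, an alternative chosen after seeing the data. Cluster 6 (404 cells), whose first gene was the epithelial keratin Krt8, was not among the 4 and stayed in.

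The chosen cells carried the other genes of the lineage as well. Cd79b, which encodes the partner of Cd79a in the receptor complex, had 624 CPM in B cells against 8.36 CPM in T cells of the same libraries. Cr2, the complement receptor of follicular and marginal zone B cells, had 51.4 CPM in B cells and 0 in T cells. Ighm, the heavy chain of IgM, reached at least 3 UMIs in 66.2% to 84.9% of the B cells of each library, against 2.20% to 12.8% of its T cells, and fewer B cells, 18.6% to 35.0%, reached that number for Ighd. Itgam, the gene of the sort marker, had a UMI in 2.06% to 11.5% of the B cells of each library. CD11b was thus rarely detected as RNA in B cells that had passed a sort for the protein.

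The rule cut the edge of the population at few cells. Exactly 3 of the 7 genes were detected in 467 B cells, exactly 4 in 1047, 5 in 1481, 6 in 1117 and all 7 in 398, and 269 cells just outside had 2. Inside the rule 39 cells had 10 to 19 Jchain UMIs, against 6 cells just outside with 20 to 29, and 34 cells had 3 or 4 Lyz2 UMIs, against 12 just outside with 5 or 6. Another 31 cells met every other condition but had a Cd3e UMI.

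B cells made up very different shares of the sorted cells, and the libraries of 1 group differed as much as the groups did. In the SI libraries they were 3.67% (134 of 3654 cells) and 30.1% (1647 of 5470 cells). In the GF colon libraries they were 7.93% (115 of 1450) and 23.9% (680 of 2846). The antibiotic-treated colon held 19.2% (467 of 2433 cells), the library labelled Nlrc4 deficient with DSS 9.5% (636 of 6698), the DSS colon 6.17% (257 of 4162), and the SPF colon libraries 7.00% (183 of 2615) and 16.1% (391 of 2431). The lowest and the highest share were both from the small intestine, SI library 1 holding 1775 plasma cells by Jchain and SI library 2 holding 315.

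Neither replicated comparison of the share exceeded the spread of the libraries. The share averaged 16.9 ± 18.7% in SI and 11.5 ± 6.42% in SPF colon (SD, n = 2 each, exact permutation test, two-sided p = 1), and 15.9 ± 11.3% in GF colon against 11.5 ± 6.42% in SPF colon (exact permutation test, two-sided p = 0.667). With 2 libraries a group such a test cannot go below 0.33. T cells made up 2.33 ± 0.275% in SI and 7.60 ± 1.06% in SPF colon (SD, n = 2 each, p = 0.33, the smallest the exact permutation test can give), so that B cells outnumbered T cells 1.72 and 11.9 times in SI and 1.02 and 1.93 times in SPF colon. There were fewer B cells than T cells in the DSS library only, at 0.714 per T cell. Intervals and floors here and below cover counting error only.

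**Figure D1:**
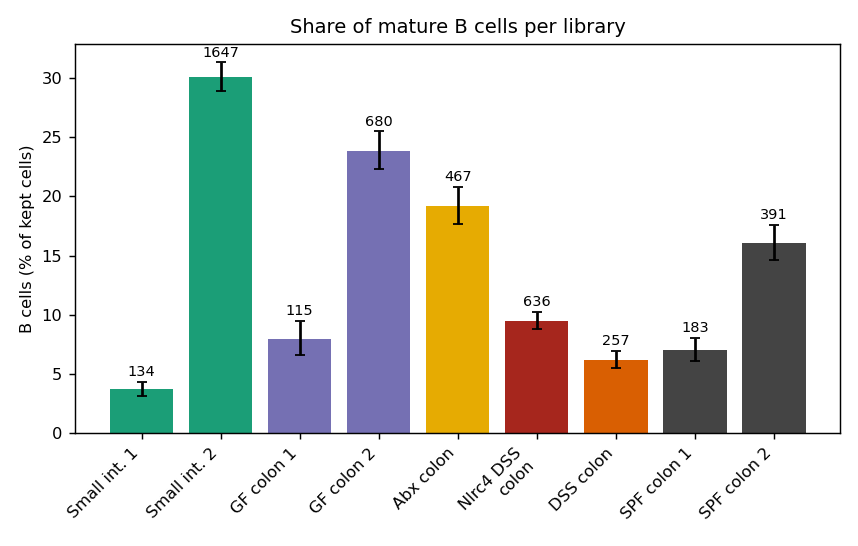
Share of B cells among the cells that passed the filter (y axis, percent) in each of the 9 libraries (x axis), with exact binomial 95% intervals and the number of B cells above each bar. SI library 2, at 30.1%, and SI library 1, at 3.67%, mark both ends.

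Few B cells carried several germinal centre genes, and most of those also carried cell cycle genes. At least 3 of 12 germinal centre genes, among them Rgs13, a regulator of chemokine signalling, were detected in 147 of the 4510 B cells (3.26%). The share was 1.49% and 3.04% in the SI libraries, 0 of 115 cells (exact interval up to 3.16%) and 1.03% in GF colon, 3.0% with antibiotics, 4.25% in the library labelled Nlrc4 deficient, 6.61% in the DSS library, and 6.01% and 4.86% in SPF colon. Of the 147 cells, 105 (71.4%) also carried at least 3 of 14 cell cycle genes, which 1019 B cells (22.6%) carried in all. Deep cells reach such counts more easily: after each cell was thinned to 1000 UMIs, which left out 50 B cells, the germinal centre share was 0 to 0.784% and the cycle share 1.28% to 6.08% over the libraries. In unsupervised clustering a group of 62 cells with a median of 10350 UMIs carried both sets of genes. It held no cell of either GF library. Other cells carried the 12 germinal centre genes as well. Summed, these genes had 376 to 1232 CPM in the other cells of the libraries and 150 to 415 CPM in B cells. The 147 cells were not recounted without the clusters led by other lineages.

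The comparison of GF with SPF colon asks what B cells look like without a microbiota. Germinal centre, cell cycle, immunoglobulin constant chain and interferon lists had medians below 0 in GF B cells, but no gene passed the test. edgeR's quasi-likelihood test on the counts summed per library called 0 of 8498 genes (0.0%) at a false discovery rate of 0.05, with 479 at an unadjusted p under 0.05, and DESeq2 called 7. Leaving out GF library 2 gave 4 calls, all of them haemoglobin genes, and leaving out SPF library 1 gave 2, both genes of ribosomal proteins. GF library 1 carried red cell RNA in its B cells, with 10200 CPM of Hbb-bs against 0 in GF library 2 and in both SPF libraries. Lists are therefore described by how many members did not overlap between the 2 libraries of each group, which 17.9% of all genes did with GF lower and 17.4% with GF higher. An unadjusted p under 0.05 was reached by 3.33% of all genes with GF lower and 2.31% with GF higher. The GF libraries themselves differed by 2-fold or more in 494 genes with library 2 higher (5.41%) and in 225 with it lower (2.46%).

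Interferon response genes had the largest such count. Of 13 members tested, 10 lay lower in both GF libraries than in both SPF libraries and 0 higher, and 6 had an unadjusted p under 0.05 (list median log2 fold change −0.99, against −0.01 over all genes). Isg15, a ubiquitin-like protein induced by interferon, had 2.43 and 4.58 CPM in GF colon and 19.1 and 19.1 CPM in SPF colon (log2 fold change −2.09 ± 0.51 SE, adjusted p = 0.774). Zbp1, a sensor of left-handed nucleic acid, had 2.43 and 0.763 CPM in GF colon and 11.4 and 9.53 CPM in SPF colon, and Trim30a 31.7 and 35.1 CPM in GF colon and 83.8 and 64.2 CPM in SPF colon. The GF libraries were close to each other in Trim30a and stood below both SPF libraries. In T cells of the same libraries the summed list of 20 genes was lower too, with 559 and 751 CPM in GF colon and 1498 and 1304 CPM in SPF colon, against 314 and 288 CPM in GF colon B cells and 738 and 560 CPM in SPF colon B cells. Trim30a in T cells was lower, with 34.9 and 48.4 CPM in GF colon and 80.1 and 74.3 CPM in SPF colon, whereas Isg15 in T cells overlapped, with 73.8 and 107 CPM in GF colon and 95.4 and 103 CPM in SPF colon.

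Germinal centre genes lay lower without overlap in 5 of 9 members tested and cell cycle genes in 6 of 12, with none higher in either list, and the list medians were −1.22 and −1.23. In T cells the summed cell cycle list was lower too, with 1266 and 1005 CPM in GF colon and 3422 and 1543 CPM in SPF colon. The summed germinal centre list overlapped in T cells, with 149.5 and 270 CPM in GF colon and 108 and 513 CPM in SPF colon. In B cells this sum was 173 and 179 CPM in GF colon and 356 and 317 CPM in SPF colon. Without the clusters led by other lineages it was 105 and 149 CPM, against 322 and 264 CPM. Rgs13 had 2.43 and 0 CPM in GF colon and 48.3 and 7.03 CPM in SPF colon. Basp1, a signalling protein of the membrane, had 68.2 and 40.8 CPM in GF colon and 132 and 121 CPM in SPF colon (log2 fold change −1.22 ± 0.38, adjusted p = 0.774). S1pr2, the receptor that keeps cells within the follicle centre, had 0 and 0.763 CPM in GF colon and 12.7 and 3.51 CPM in SPF colon. Rrm2, a subunit of the enzyme that makes deoxynucleotides, had 0 and 2.29 CPM in GF colon and 62.2 and 6.02 CPM in SPF colon. In GF library 1 Rgs13, S1pr2 and Rrm2 lay under the floor of 3 counts, 7.3 CPM. The SPF libraries differed here as well, since 4 of 10 germinal centre genes and 8 of 14 cell cycle genes were past 2-fold lower in SPF library 2 than in SPF library 1, against 3.06% of all genes compared between them. Fewer germinal centre cells and less RNA of these genes per cell cannot be told apart from the sums.

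Several genes of switched and memory cells lay lower in GF colon, though their lists did not all do so. Of 10 immunoglobulin constant genes tested, 5 lay lower in both GF libraries and none higher (list median −1.46). The summed list in B cells had 6382 and 5149 CPM in GF colon and 7425 and 6804 CPM in SPF colon. T cells were lower too, with 406 and 153 CPM in GF colon and 1368 and 637 CPM in SPF colon. The part of such RNA in the B cell values was not tested. Of 5 memory genes 2 lay lower and 0 higher, of 12 homing receptor genes 4 lower and 4 higher, and of 12 survival and cytokine receptor genes 3 lower and 1 higher. Over all genes 17.9% lay lower and 17.4% higher. Ighg2b, the heavy chain of IgG2b, had 0 and 26.7 CPM in GF colon and 161 and 87.3 CPM in SPF colon (log2 fold change −2.52 ± 0.82, adjusted p = 0.774), and Ighg1 9.74 and 8.01 CPM in GF colon and 64.8 and 22.6 CPM in SPF colon. Igha, the heavy chain of IgA, had 302 and 69.4 CPM in GF colon and 1440 and 564 CPM in SPF colon. Its level in T cells, which do not make it, moved with this difference, at 155 and 46.0 CPM in GF colon and 697 and 312 CPM in SPF colon. Nt5e (CD73), a surface enzyme of memory B cells that makes adenosine, had 26.8 and 4.96 CPM in GF colon and 43.2 and 42.1 CPM in SPF colon. Tnfrsf13b (TACI), a receptor of the survival factors BAFF and APRIL, had 31.7 and 14.1 CPM in GF colon and 69.8 and 50.7 CPM in SPF colon. Ccr6, a homing receptor of follicles near the epithelium, had 41.4 and 22.5 CPM in GF colon and 81.3 and 74.3 CPM in SPF colon (log2 fold change −1.35 ± 0.38, adjusted p = 0.774). Ccr6 in T cells was at most 5.52 CPM in these 4 libraries.

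B-1 and atypical B cell genes lay lower in 6 of 10 members. The summed list of 12 genes had 190 and 131 CPM in GF colon B cells and 238 and 320 CPM in SPF colon B cells. T cells carried it at higher levels, and there too it was lower in GF colon. They had 753 and 822 CPM in GF colon and 2210 and 2286 CPM in SPF colon. Fcrl5, a receptor of innate-like B cells, had 9.74 and 1.53 CPM in GF colon and 21.6 and 12.5 CPM in SPF colon, and Ahr, a sensor of aromatic compounds, 58.4 and 45.4 CPM in GF colon and 64.8 and 128 CPM in SPF colon. Of 19 activation genes 4 were lower and 2 higher without overlap, and of 18 receptor signalling genes 5 were lower and 3 higher. Over all genes 17.9% lay lower and 17.4% higher, so these counts are not read as a difference of either list. Among single members, Egr2, an early gene of receptor signalling, had 17.0 and 10.3 CPM in GF colon and 33.0 and 42.7 CPM in SPF colon. Cd72, an inhibitory co-receptor, had 132 and 145 CPM in GF colon and 234 and 230 CPM in SPF colon. MHC class I genes were lower in 4 of 9, the peptide transporter Tap1 having 43.8 and 37.0 CPM in GF colon and 76.2 and 69.2 CPM in SPF colon.

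Some list genes lay higher in GF B cells. Sdc1, a surface proteoglycan best known from plasma cells, had 39.0 and 34.0 CPM in GF colon and 11.4 and 13.6 CPM in SPF colon (log2 fold change 1.61 ± 0.35, adjusted p = 0.760), whereas Xbp1, the transcription factor of secretion, had 24.4 and 49.2 CPM in GF colon and 71.1 and 96.8 CPM in SPF colon. Sdc1 in T cells was 1.94 and 20.8 CPM in GF colon and 6.30 and 6.13 CPM in SPF colon. Foxo1, a transcription factor of resting cells, had 212 and 244 CPM in GF colon and 160 and 184 CPM in SPF colon. The log2 fold change of Foxo1 was 0.54 ± 0.21, and it did not pass the edgeR test (adjusted p = 0.869). Of 10 MHC class II genes 2 lay higher and 0 lower, where 17.4% of all genes lay higher. Cd74, the invariant chain, had 12160 and 12590 CPM in GF colon and 8908 and 12270 CPM in SPF colon. These values of Cd74 overlap, since overlap was judged after edgeR's scaling of the libraries and the printed CPM are unscaled.

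**Figure D2:**
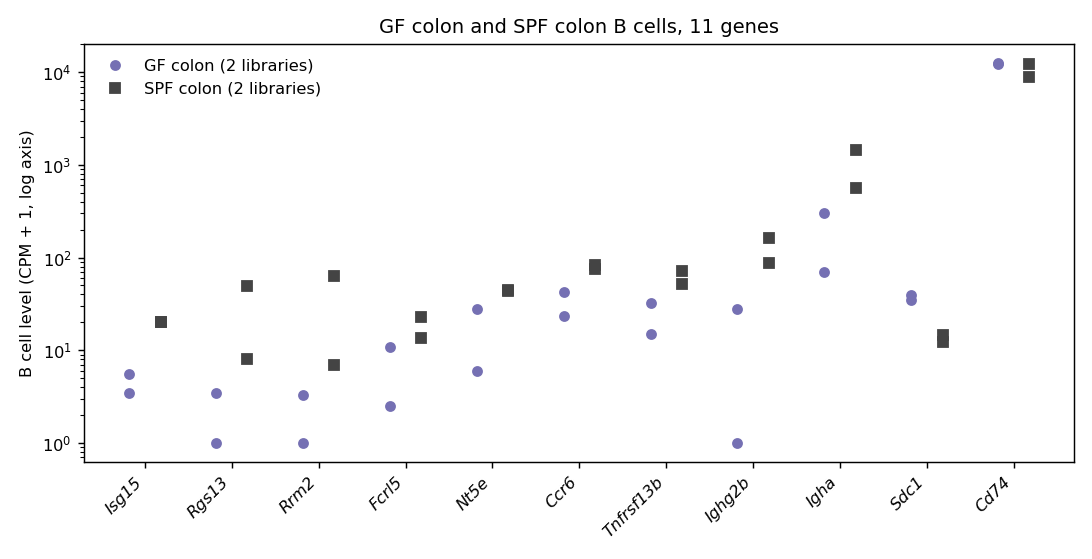
Level in B cells (y axis, CPM + 1, log scale) of 11 genes (x axis) in GF and SPF colon, 1 point for each of the 2 libraries of a group. GF points of Isg15, Ighg2b and Ccr6 lie under both SPF points, and those of Sdc1, at 39.0 and 34.0 CPM, lie above them.

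The comparison of small intestine with colon asks whether B cells differ along the gut. Single genes such as Ccr9, Cd38 and Ebi3 lay higher in both SI libraries and some interferon genes lower, and again no gene passed the test. edgeR called 0 of 8498 genes (0.0%), with 273 at an unadjusted p under 0.05, and DESeq2 called 2, both of them haemoglobin genes. Leaving out SI library 1 gave 10 calls, and leaving out SI library 2, SPF library 1 or either GF library gave 1 each. Between the libraries of SI and SPF colon 15.7% of all genes did not overlap with SI higher and 14.7% with SI lower. An unadjusted p under 0.05 was reached by 2.24% with SI higher and 0.977% with SI lower. The SI libraries differed by 2-fold or more in 347 genes with library 2 higher (3.21%) and in 184 with it lower (1.7%).

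Of 12 homing receptor genes tested 3 lay higher in SI and 0 lower, of 10 cytokine and ligand genes 3 and 0, and of 5 memory genes 3 and 1. Over all genes 15.7% lay higher and 14.7% lower. Ccr9, the receptor that guides lymphocytes to the small intestine, had 25.9 and 15.7 CPM in SI and 3.81 and 9.03 CPM in SPF colon (log2 fold change 1.61 ± 0.54, adjusted p = 1.00). T cells of the same libraries had 308 and 164 CPM of Ccr9 in SI and 101 and 30.7 CPM in SPF colon. Both lymphocytes thus had it higher in each SI library than in either colon library. Cd38, an enzyme that consumes NAD and lies on naive and memory B cells of the mouse, had 94.5 and 92.4 CPM in SI and 58.4 and 58.2 CPM in SPF colon (log2 fold change 0.83 ± 0.23, adjusted p = 1.00). Cd274 (PD-L1), a ligand of the checkpoint receptor PD-1, had 94.5 and 134 CPM in SI and 54.6 and 84.8 CPM in SPF colon. Its relative Pdcd1lg2 (PD-L2) had 22.2 and 22.1 CPM in SI and 12.7 and 12.5 CPM in SPF colon. Ebi3, a subunit of IL-27 and IL-35, had 14.8 and 17.1 CPM in SI and 7.62 and 8.03 CPM in SPF colon. The libraries of a region lay close together in Cd38, Pdcd1lg2 and Ebi3, though the last rests on 6 and 16 UMIs in SPF colon.

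Igha had 5656 and 1006 CPM in SI B cells and 1440 and 564 CPM in SPF colon B cells, and 3287 and 800 CPM in SI T cells and 697 and 312 CPM in SPF colon T cells. The SI libraries overlapped the SPF libraries in B cells. Of 13 interferon response genes 5 lay lower in SI without overlap and 0 higher, Isg15 having 7.42 and 9.11 CPM in SI and 19.1 and 19.1 CPM in SPF colon. Cd9, a tetraspanin of marginal zone and B-1 cells, had 31.5 and 34.2 CPM in SI and 74.9 and 67.7 CPM in SPF colon, whereas Cd22, an inhibitory receptor of the B cell receptor, had 163 and 105 CPM in SI and 102 and 65.2 CPM in SPF colon. Cd9 was also a leading gene of cluster 8, which is led by eosinophil genes. It had 707 CPM there and 42.7 CPM in the other B cells. The part of that cluster in the Cd9 values was not tested. Fcgr2b, the inhibitory Fc receptor, had 55.6 and 60.8 CPM in SI and 102 and 88.8 CPM in SPF colon. Of 16 immediate-early and heat shock genes 6 lay higher and 0 lower, and of 10 MHC class II genes 4 lay higher and 0 lower. Germinal centre genes differed little, with 1 of 9 higher and a list median of −0.12.

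RNA of the epithelium was high in SI library 2. Of 8 epithelial genes tested in B cells 4 lay higher in SI and 0 lower (list median 1.93), and Defa24, a defensin of Paneth cells, had 70.4 and 2390 CPM in SI and 50.8 and 0 CPM in SPF colon. The summed level of the whole list of 12 genes in B cells was 108 and 2732 CPM in SI and 176 and 21.1 CPM in SPF colon, with 7 to 11 of its genes detected in a library. Most of the genes called with SI library 1 left out are epithelial genes too. Among them were Tff3, Defa17 and Olfm4, with log2 fold changes of 8.50, 8.61 and 10.8. The part of epithelial RNA in the other differences was not tested.

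Whether the region acted differently on B cells than on T cells was tested as an interaction in the 4 libraries. edgeR called 0 of 8320 genes (0.0%), with 255 at an unadjusted p under 0.05, and DESeq2 called 0. Leaving out SPF library 1 gave 112 calls and leaving out SPF library 2 gave 11. No gene is therefore given as particular to B cells in this comparison.

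The DSS library had B cells with high levels of interferon response genes. Such genes are switched on when interferon signalling activates transcription factors that bind the interferon-stimulated response element (ISRE) in promoters. The element was searched as TTTC, any 2 bases and TTTC again, on both strands, in the 250 bases before each gene's start, in the RefSeq promoter table for GRCm38.p6. It was found in 8 of the 13 interferon list genes that the table holds, against 3.46% of all 27025 genes in the table. Of the 15 list genes past 2-fold in the DSS library 10 are in the table and 6 of these carry it. Oas1a and Trim30a, which were not past 2-fold there, carry it too. The stretches of the 6 genes past 2-fold are shown, each 5′ to 3′ on the gene's strand, 30 bases long, with the matched letters in capitals (overlapping matches run together in Isg15 and Bst2, and the first of 2 stretches is shown for Ifit1 and Ifit3).
Isg15: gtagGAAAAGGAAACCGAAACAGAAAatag
Rsad2: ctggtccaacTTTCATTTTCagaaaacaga
Gbp2: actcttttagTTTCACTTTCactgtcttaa
Ifit1: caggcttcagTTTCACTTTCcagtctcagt
Ifit3: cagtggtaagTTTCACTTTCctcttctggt
Bst2: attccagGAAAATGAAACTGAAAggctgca
They lie on GRCm38 at chr4:156200871-156200900 on the minus strand (Isg15), chr12:26456553-26456582 on the minus strand (Rsad2), chr3:142620594-142620623 on the plus strand (Gbp2), chr19:34640775-34640804 on the plus strand (Ifit1), chr19:34583363-34583392 on the plus strand (Ifit3) and chr8:71537580-71537609 on the minus strand (Bst2). The matched letters start 78 bases before the RefSeq start of the gene in Isg15, 120 in Rsad2, 59 in Gbp2, 104 in Ifit1, 156 in Ifit3 and 130 in Bst2. GENCODE vM21 starts Gbp2 earlier, at 142620602, so in that annotation the matched letters lie inside the gene. A match is a stretch of letters and not a measured binding site.

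With 1 DSS library no test was made, and genes are given that were at least 2-fold apart from each SPF library (on CPM plus 5, with at least 10 UMIs). In the DSS library 184 of 10034 genes (1.83%) were past 2-fold higher and 30 (0.299%) lower. Against SPF library 1 alone or SPF library 2 alone the sum of both directions was 391 and 689 in place of 214. The SPF libraries themselves differed by 2-fold or more in 315 genes with library 2 higher (3.38%) and in 285 with it lower (3.06%). The interferon list stood out, with 15 of 20 genes higher and 0 lower (median log2 ratio 1.48 to the nearer SPF library, against 0 over all genes).

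Isg15 had 121 CPM in DSS B cells against 19.1 and 19.1 CPM in SPF colon, and Irf7, the factor that amplifies the interferon response, 120 CPM in DSS B cells against 10.2 and 18.6 CPM in SPF colon. Rsad2 (viperin), an antiviral enzyme, had 50.7 CPM in DSS B cells against 6.35 and 5.52 CPM in SPF colon. Ifi27l2a, a mitochondrial protein induced by interferon, had 1000 CPM in DSS B cells against 306 and 177 CPM in SPF colon. Each of these 4 was above both SPF libraries by at least the 2-fold used. Gbp2, a GTPase that attacks intracellular microbes, had 93.9 CPM in DSS B cells against 20.3 and 5.52 CPM in SPF colon, and Ly6a (Sca-1) 278 CPM against 99.1 and 90.8 CPM in SPF colon. The summed level of the list was 2412 CPM in DSS B cells (exact Poisson interval 2326 to 2502), against 738 (679 to 800) and 560 CPM (528 to 594) in SPF colon.

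The height of the interferon genes in the DSS library shrank but did not vanish without the clusters led by other lineages. There the summed level was 1890 CPM in DSS B cells, against 716 and 544 CPM in SPF colon, and 11 of 19 genes were past 2-fold against 1.03% of all genes. Isg15, Gbp2 and Ly6a were then no longer past 2-fold, at log2 ratios of 0.90, 0.82 and 0.84. Over the other settings 10 to 18 of the 20 genes were past 2-fold. The cells also sat in different clusters. Cluster 6, led by the keratin Krt8 and the heat shock genes Hspa1b and Hspa1a, was not among those left out. It held 51.0% of DSS B cells, against 19.7% and 6.14% of SPF B cells. Cluster 3 held 1.95% of DSS B cells, against 4.92% and 54.0% of SPF B cells. Krt8 was detected in 11.4% of the cells of cluster 6 and Hspa1a in 35.15%. Over all DSS B cells Hspa1a was lower, at 39.06 CPM against 86.35 and 172.6 CPM in SPF colon. The part of the clusters in the interferon values was not tested. T cells of the DSS library had 2779 CPM of the list, against 1498 and 1304 CPM in SPF colon, but Isg15 in T cells was 118 CPM in DSS and 95.4 and 103 CPM in SPF colon, and Irf7 40.9 CPM in DSS and 36.9 and 39.5 CPM in SPF colon. At least 3 list genes were detected in 65.0% of DSS B cells (58.8% to 70.8%), against 25.1% and 19.9% in SPF colon. After thinning to 1000 UMIs the shares were 18.4% (13.9% to 23.7%) in DSS and 3.87% and 2.30% in SPF colon.

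**Figure D3:**
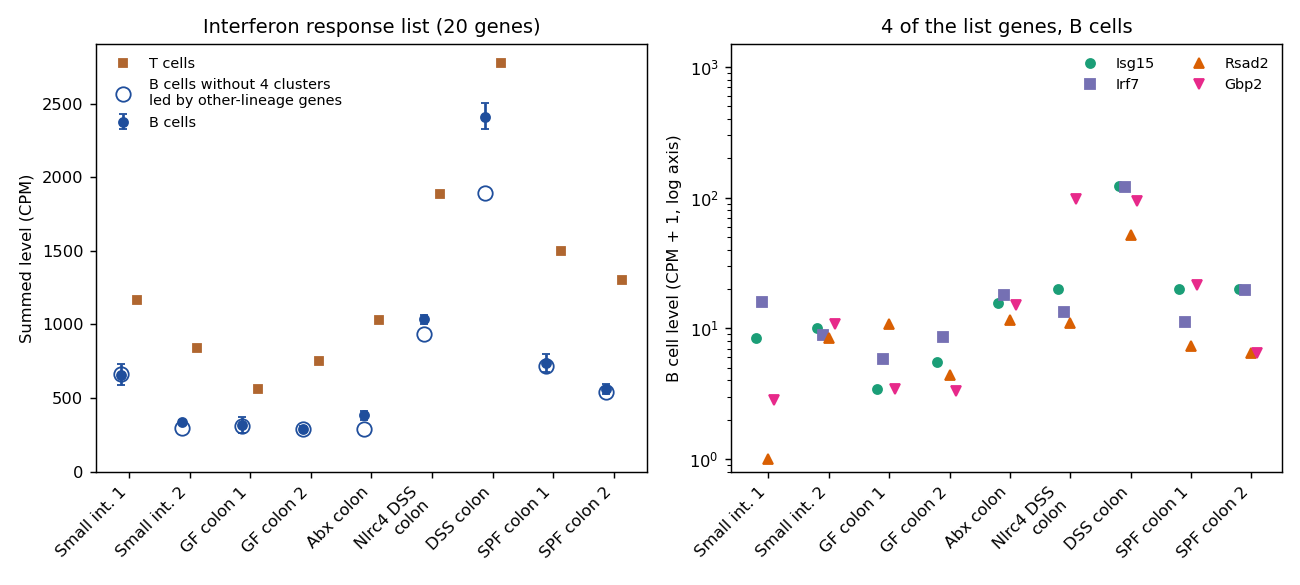
Left, summed level of the 20 interferon response genes (y axis, CPM) in B cells of each library with exact Poisson 95% intervals, in B cells without the clusters led by other lineages, and in T cells; right, level of 4 members in B cells (CPM + 1, log scale), with the libraries on both x axes. The DSS library, at 2412 CPM, stands above all others in B cells, and the GF libraries, at 314 and 288 CPM, are the lowest.

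Other genes high in DSS B cells are best known from other cells. Cxcl9, an interferon-induced chemokine, had 122 CPM in DSS B cells against 3.81 and 3.51 CPM in SPF colon, and the neutrophil gene Retnlg had 436 CPM against 48.3 and 19.1 CPM. The epithelial keratin Krt18 had 53.2 CPM in DSS B cells against 1.27 and 0.502 CPM in SPF colon. Summed myeloid genes (12 of 12 detected) were 3962 CPM in DSS B cells against 2365 and 1216 CPM in SPF colon, and epithelial genes (10 of 12 detected) 403 CPM against 176 and 21.1 CPM. Without the 4 clusters led by other lineages Cxcl9 was not past 2-fold (log2 ratio 0.86). Myeloid genes then summed to 1307 CPM in DSS B cells, against 956 and 1066 CPM in SPF colon. Epithelial genes summed to 442 CPM in DSS B cells, against 174 and 21.7 CPM in SPF colon. Among the genes lower in DSS B cells, Ccr6 had 25.8 CPM in DSS and 81.3 and 74.3 CPM in SPF colon. Germinal centre, receptor signalling, transcription factor and MHC class II lists had no member past 2-fold in either direction.

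B cells of the library labelled Nlrc4 deficient, also given DSS, had a different set of genes from the DSS library. Against SPF colon 65 of 10567 genes (0.615%) were past 2-fold higher and 145 (1.37%) lower, and against the DSS library 158 of 10293 (1.54%) were higher and 590 (5.73%) lower. Against SPF library 1 alone or SPF library 2 alone the sum was 784 and 527 in place of 210. Genotype, library and depth cannot be told apart with 1 library each, its B cells having a median of 5036 UMIs against 3748 in the DSS library and 3121 and 4271 in SPF colon.

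Interferon genes were lower than in the DSS library in 15 of 20 members. Isg15 had 19.1 CPM in the library labelled Nlrc4 deficient, against 121 CPM in the DSS library, Irf7 12.4 against 120 CPM and Rsad2 9.94 against 50.7 CPM. These 3 were less than 2-fold from each SPF library. Other members were less than 2-fold from the DSS library, with Gbp2 at 95.9 CPM against 93.9 CPM in the DSS library and Ly6a at 251 against 278 CPM. The summed list had 1035 CPM in the library labelled Nlrc4 deficient, 2412 CPM in the DSS library, and 738 and 560 CPM in SPF colon. Isg15 in T cells was 136 CPM in the library labelled Nlrc4 deficient and 118 CPM in the DSS library. Myeloid genes summed to 1868 CPM against 3962 CPM, and the neutrophil gene S100a9 had 62.9 CPM in the library labelled Nlrc4 deficient against 1268 CPM in the DSS library and 512 and 4.52 CPM in SPF colon. The part of such RNA in the interferon difference was not tested. Without the 4 clusters led by other lineages, a setting that kept cluster 6, 11 of 19 interferon genes were lower and 2 higher. Over all genes compared in that setting 4.07% were lower and 2.20% higher.

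Switched immunoglobulin was high in the library labelled Nlrc4 deficient. Ighg1 (chromosome 12, 113325240 to 113330523 on the minus strand, GRCm38) had 176 CPM there from 709 UMIs, 0 UMIs in the DSS library, and 64.8 and 22.6 CPM in SPF colon. Against the floor of 3 counts in the DSS library it was at least 70.6-fold higher, and the DSS library was at least 26.0-fold and 9.06-fold lower than the SPF libraries. Of the 10 constant genes compared, Ighg1 and Ighg2b were past 2-fold higher against both the DSS library and SPF colon. Ighg2b had 340 CPM in the library labelled Nlrc4 deficient, 119 CPM in the DSS library, and 161 and 87.3 CPM in SPF colon.

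At least 3 IgG UMIs, summed over Ighg1, Ighg2b, Ighg2c and Ighg3, were found in 20.4% of its B cells (17.4% to 23.8%), 5.45% of DSS B cells (3.01% to 8.97%), and 6.56% and 4.86% of SPF B cells. In T cells of those libraries the share was 0 of 273 cells (exact interval up to 1.34%), 0.556%, and 0 in both SPF libraries. The order held at equal depth: with cells thinned to 1000 UMIs, 18.8% of B cells in the library labelled Nlrc4 deficient had an IgG UMI, 7.84% in the DSS library, and 11.6% and 5.37% in SPF colon, against 0.366%, 2.22%, 3.91% and 0.985% of their T cells. IgG genes share long stretches of sequence, so reads may be split among them or lost. In the other libraries at least 3 IgG UMIs were found in 10.4% and 3.10% of SI B cells, in 0 of 115 and 0.882% of GF B cells and in 3.64% of B cells with antibiotics.

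For IgA the order of B and T cells depended on the threshold. In 7 of the 9 libraries the share of B cells with at least 3 Igha UMIs did not exceed that of T cells, as in SPF colon, with 60.1% and 24.6% of B cells and 72.6% and 36.9% of T cells. With at least 10 Igha UMIs the share was higher in B cells in 7 of the 9 libraries, as in SPF colon, with 9.29% and 4.35% of B cells and 4.47% and 0.985% of T cells, and the antibiotic-treated colon, with 3.64% of B cells and 0 of 234 T cells (exact interval up to 1.56%). T cells were deeper, with medians of 4541 to 6310 UMIs in the libraries against 2830 to 5036 in B cells. At 3 UMIs the exceptions were GF library 1, with 8.70% of B cells and 6.86% of T cells, and the library labelled Nlrc4 deficient, with 19.5% of B cells (16.5% to 22.8%) and 7.33% of T cells (4.53% to 11.1%).

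**Figure D4:**
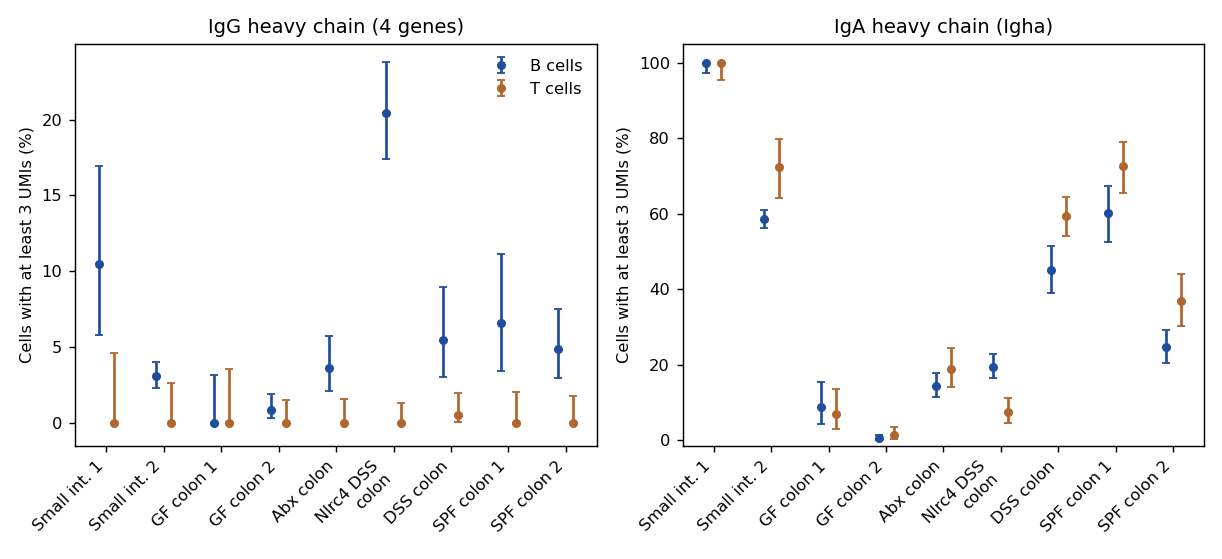
Share of cells with at least 3 UMIs of IgG (left) and Igha (right) in B cells and T cells of each library (y axis, percent, exact binomial 95% intervals). IgG was found in at most 0.556% of T cells and in the largest share of B cells, 20.4%, in the library labelled Nlrc4 deficient, whereas the share with Igha in B cells did not exceed that in T cells in 7 of the 9 libraries.

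Several other B cell genes stood apart in this library. Bhlhe41, a transcription factor that maintains B-1a cells, had 81.5 CPM in the library labelled Nlrc4 deficient, 11.6 CPM in the DSS library, and 15.2 and 33.1 CPM in SPF colon. Swap70, a signalling protein of switched B cells, had 382 CPM in the library labelled Nlrc4 deficient, 99.7 CPM in the DSS library, and 142 and 239 CPM in SPF colon, so it was past 2-fold against the DSS library only. Hmox1, which degrades haem, had 173 CPM in the library labelled Nlrc4 deficient, 26.6 CPM in the DSS library, and 26.7 and 18.1 CPM in SPF colon. T cells had at most 5.45 CPM of Bhlhe41 in these 4 libraries, but 66.0 CPM of Hmox1 in the library labelled Nlrc4 deficient, against 11.0 CPM in the DSS library and 12.6 and 57.2 CPM in SPF colon. Mir155hg, the host transcript of a microRNA of activated B cells, had 92.4 CPM in the library labelled Nlrc4 deficient, 6.65 CPM in the DSS library, and 5.08 and 34.1 CPM in SPF colon. Of 12 B-1 and atypical B cell genes 4 were higher and 2 lower than in the DSS library. Cxcr3, a homing receptor of inflamed tissue, had 20.4 CPM in the library labelled Nlrc4 deficient, 3.32 CPM in the DSS library, and 1.27 and 0 CPM in SPF colon.

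Genes of recent stimulation were lower in part. Against SPF colon 5 of 16 immediate-early and heat shock genes and 3 of 19 activation genes were past 2-fold lower, and none higher. Nr4a1 (Nur77), an early gene of B cell receptor signalling, had 194 CPM in the library labelled Nlrc4 deficient, 788 CPM in the DSS library, and 837 and 861 CPM in SPF colon. Fos, a subunit of AP-1, had 77.8 CPM in the library labelled Nlrc4 deficient, 424 CPM in the DSS library, and 425 and 225 CPM in SPF colon. T cells of the same libraries had 252, 462, 727 and 628 CPM of Nr4a1 in that order of libraries, so it was low in T cells too. Against the DSS library 5 of 11 germinal centre genes and 6 of 14 cell cycle genes were lower and none higher, but against SPF colon 0 of 10 germinal centre genes and 0 of 14 cell cycle genes were past 2-fold in either direction. Bcl11a, a transcription factor of early and naive B cells, had 43.5 CPM in the library labelled Nlrc4 deficient, 116 CPM in the DSS library, and 140 and 134 CPM in SPF colon. Mid1, an X-linked ubiquitin ligase, had 0 UMIs in B cells of the library labelled Nlrc4 deficient, against 22.4 CPM in the DSS library and 43.2 and 70.7 CPM in SPF colon, at least 30.1-fold, 57.9-fold and 94.9-fold lower. It was at 0.584 CPM in T cells of that library too, against 26.1 CPM in T cells of the DSS library and 25.2 and 60.0 CPM in those of SPF colon.

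Both DSS libraries were set against the same SPF libraries. In both, 17 genes were past 2-fold higher, which is 9.24% of the 184 in the DSS library and 26.2% of the 65 in the library labelled Nlrc4 deficient, and 4 were lower. Cxcl9 had 73.3 CPM in the library labelled Nlrc4 deficient and 122 CPM in the DSS library, and S100a6, a calcium-binding protein, 327 CPM and 288 CPM in that order, against 104 and 57.2 CPM of S100a6 in SPF colon. Without the clusters led by other lineages Cxcl9 was not past 2-fold in the library labelled Nlrc4 deficient either (log2 ratio 0.46).

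**Figure D5:**
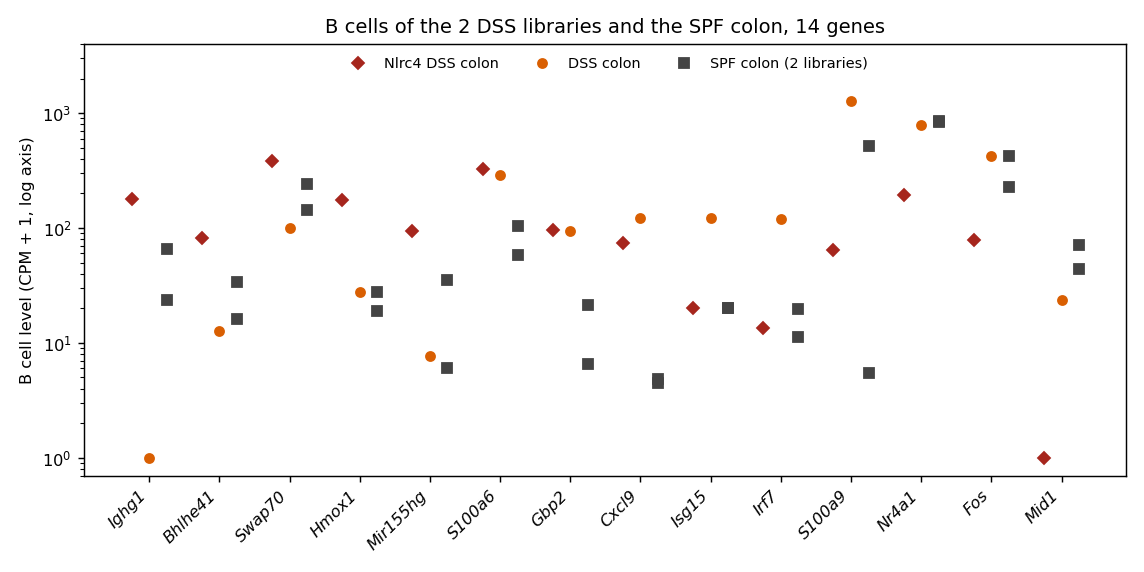
Level in B cells (y axis, CPM + 1, log scale) of 14 genes (x axis) in the library labelled Nlrc4 deficient with DSS, the DSS library and both SPF colon libraries, 1 point per library. Ighg1, Bhlhe41 and Hmox1 are highest in the library labelled Nlrc4 deficient, Isg15 and Irf7 in the DSS library, and Nr4a1, Fos and Mid1 are lowest in the library labelled Nlrc4 deficient.

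Few B cell genes differed with antibiotics. Of 10168 genes 94 (0.924%) were past 2-fold higher than in each SPF library and 11 (0.108%) lower, and among the 19 lists of B cell biology a single gene was past 2-fold, Ccl22, a chemokine that attracts regulatory T cells. Against SPF library 1 alone or SPF library 2 alone the sum was 623 and 188 in place of 105. The genes with the largest ratios are best known from stromal cells, all 5 stromal genes compared being higher: Igfbp3 had 95.6 CPM with antibiotics against 0 and 0.502 CPM in SPF colon, and Dcn (decorin) 108 CPM against 3.81 and 3.01 CPM. Il1b, a cytokine of myeloid cells, had 71.1 CPM with antibiotics and 232 and 208 CPM in SPF colon. Without the clusters led by other lineages 25 genes were left, and of the 9 genes named by the rule 8 were no longer past 2-fold and Igfbp3 fell under the 10 UMIs needed to be compared. Interferon genes in B cells summed to 383 CPM with antibiotics, against 738 and 560 CPM in SPF colon, with no member past 2-fold.

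Clustering divided the B cells into 14 groups, 4 of them those left out above as led by other lineages. Several groups came mostly from 1 library, so a group and a library cannot be told apart: clusters 1 and 2 were 79.3% and 81.6% from SI library 2, and clusters 7 and 9 were 68.8% and 70.5% from the library labelled Nlrc4 deficient. Cluster 7 (269 cells, median 8091 UMIs) carried Ighg2b, Bhlhe41, Zbtb32, Spn and Nt5e above the other B cells and had an Ighd UMI in 8.18% of its cells, against 70.0% of the others. Bhlhe41, Zbtb32 and Spn are markers of B-1 cells and Nt5e of memory cells, and the other such markers are not given for cluster 7. Cluster 5 (363 cells) was led by Cd300lf and Tnfrsf13b and cluster 11 (273 cells) by Myc and Nfkbid. Ctla4, another B-1 marker, was among the leading genes of cluster 5, at 50.6 CPM against 14.4 CPM in the other B cells. Immunoglobulin genes were left out when the clusters were formed. The other genes named could take part in forming them, and none of these genes was tested.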

How the data were processed

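The deposited files hold UMI counts per gene and cell, which the authors made with Cell Ranger 3.0.2 (per the file headers), with STAR 2.5.1b and mm10 named in the submitters' processing notes, and did not normalise; all 31053 genes were used. Counts of the B cells were summed per library (410718 UMIs in GF library 1 to 6253892 in SI library 2). CPM is UMIs in 1000000 of that sum. Overlap between the libraries of 2 groups was judged on CPM scaled by edgeR's TMM factors, which the printed CPM leave out. The 6 libraries of the replicated groups were fitted together in edgeR 4.0.16 (TMM, filterByExpr, quasi-likelihood, Benjamini-Hochberg over all genes, 3 residual degrees of freedom; the interaction had 2, with library as a block), and DESeq2 1.42.0 was an alternative. Groups of 1 library were compared by log2 ratios of CPM plus 5, without a test. T cells had Cd3e, at least 2 other T cell genes and at most 1 B cell marker. Cells were clustered with scanpy 1.11.5 and leidenalg 0.10.2 (2000 variable genes, 20 components, 15 neighbours, resolution 0.8). Immunoglobulin, mitochondrial and ribosomal protein genes were not among the variable genes. The 23 lists hold 279 genes. Members and lists were chosen with earlier results of these data known. In tested comparisons up to 4 genes of each list with the smallest p were named, beside the 10 largest called changes each way, of which there were none; in comparisons of 1 library, the 10 largest ratios each way with at least 50 CPM and up to 4 list members past 2-fold. Genes named outside that rule were chosen after their values were seen: Gbp2, Ifi27l2a and Ly6a in both DSS libraries, Hbb-bs and Defa24, and the markers Cd79b, Cr2 and Itgam. Some genes are not reported here. Scripts were tested on simulated data. Simulated 2-fold changes were recovered in 10% of genes for GF, 17% for SI and 1% for the interaction. At 4-fold these were 78%, 88% and 47%. Thus 0 calls do not show that no gene differed.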

Additional observations from a re-analysis of the deposited data

Results flagged for a closer look

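In B cells, 4 genes were past 2-fold on opposite sides of SPF colon in the library labelled Nlrc4 deficient and in the DSS library, each against both SPF libraries. The difference between the 2 DSS libraries was not tested, since each group has 1 library. Ighg1 had a log2 ratio of 1.38 in the library labelled Nlrc4 deficient and −2.46 in the DSS library, where it had 0 UMIs. Bc1, a small noncoding RNA of neurons, had −1.17 in the library labelled Nlrc4 deficient and 1.78 in the DSS library, Ccl6, a chemokine of myeloid cells, −1.88 and 1.08 in that order of libraries, and Slfn4, a gene of myeloid cells, −1.01 and 1.24 in that order.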

How the results depend on the processing

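For GF against SPF colon, 0 calls became 7 with DESeq2, 56 with no filter on low counts and 0 to 4 when 1 library was left out. For SI against SPF colon, 0 became 2 with DESeq2, 59 with no filter, 1 with only the 2 groups in the fit and 0 to 10 with 1 library left out. For the interaction, 0 became 5 with no filter and 0 to 112 with 1 library left out. The replicate numbers did not meet the limit for pairing in every pair of groups (correlations of deviations 0.015, 0.142 and 0.278), but library 1 had the lower B cell share and more of the neutrophil gene S100a9 in all 3 groups (484 against 12.5 CPM in SI, 558 against 8.01 in GF and 512 against 4.52 in SPF). A replicate block gave 6 calls in GF, among them Igha (edgeR adjusted p = 0.000627), 5 in SI and 99 in the interaction. Single-library counts fell with a pseudocount of 20 CPM, to 23 with antibiotics (105 in the main analysis), 55 in DSS (214), 67 in the library labelled Nlrc4 deficient against SPF (210) and 220 against DSS (748), and without the clusters led by other lineages to 25 with antibiotics. With 1 SPF library left out they were 188 to 623 with antibiotics, 391 to 689 in DSS and 527 to 784 in the library labelled Nlrc4 deficient. Saa3, lower there than in DSS, turned to a log2 ratio of 0.20 without those clusters. The highest share of B cells, 30.1%, was 27.1% with at least 4 markers, 32.1% with 2 and 28.1% with Lyz2 at 0. Shares of cells with at least 3 list genes moved with the threshold and the depth. The lowest and highest germinal centre shares became 5.22% and 18.4% with 2 genes, and the highest 0.784% when thinned to 1000 UMIs. The cycle shares of 14.4% and 37.7% became 43.6% and 75.1% with 2 genes, and 1.28% and 6.08% thinned, and the interferon shares of 5.22% and 65.0% became 15.7% and 82.1%, and 0 and 18.4% thinned. Thinning also lowered the share with at least 3 IgG UMIs to 5.69% in the library labelled Nlrc4 deficient and 0.784% in DSS, and that for Igha to 6.95% and 5.88% in that order. At resolution 0.4 there were 7 clusters. Of the single genes named, 19 values in GF and 10 in SI passed the threshold in an alternative only, 12 with antibiotics, 18 in DSS, 2 in the library labelled Nlrc4 deficient against SPF and 3 against DSS no longer passed it, and Saa3 alone reversed.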
